A study of Mus musculus with 39 samples.

Results

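Brd2, Brd3 and Brdt are genes of the BET (bromodomain and extra-terminal) family of chromatin readers. They were chosen by symbol, 3 of the 32285 genes in the single-cell table, and not by any measured value, although earlier results of these data were known. Their UMIs (unique molecular identifiers, which count captured RNA molecules) were summed over 11252 control and 8520 cKO barcodes with at least 3000 UMIs each, called cells here. The study examined spermatogenic gene expression without Kdm6a (UTX), an enzyme encoded on the X chromosome that takes methyl groups off lysine 27 of histone H3. Control males were Kdm6a fl/y; Cre-, and knockout males (cKO) were Kdm6a fl/y; Ddx4-Cre+. Both groups thus carried the floxed allele, and Ddx4-Cre drives recombination in germ cells, so somatic cells of the testis keep the allele. Whole testis gave 1 droplet library per genotype, and sorted cKIT+ spermatogonia gave 2 control and 3 cKO libraries each for ATAC-seq, which maps open chromatin, and for CUT&Tag against the histone mark H3K27me3. The labels give neither the age of the males nor the number of males per library.

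A BET protein binds acetylated histones through a pair of bromodomains and helps recruit P-TEFb, the kinase that releases paused RNA polymerase II into elongation. Brd2 and Brd3 are made in most tissues. Brdt is made in male germ cells, where it is known for gene expression in meiosis and for the compaction of acetylated chromatin in elongating spermatids.

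The control library held 229882646 UMIs, 57.8% of them in cells. For cKO the total was 172368722 UMIs, with 57.5% in cells. Median depth was 8410.5 UMIs per cell in control and 8499 in cKO, and 30 barcode sequences were shared by both libraries. Kdm6a itself had 304 UMIs in control cells and 75 in cKO cells, and its level per UMI differed by -1.60 on the log2 scale (95% interval -1.98 to -1.23). A scanpy doublet caller marked 5.25% of control and 6.01% of cKO cells, which were kept. Cells were gated into 8 classes by the class's own marker genes, none of them a BET gene. This placed 9253 control and 7282 cKO cells. By 3 further lists, 94 and 67 cells were gated as peritubular myoid cells, macrophages or endothelial cells, which have no class values here. Another 1905 and 1171 cells stayed ungated, since no list reached the required score and lead. These classes are ranges of a marker score, not separate cell types. Of the markers in the table, 6 of 9 for spermatogonia, 4 of 5 for Stra8-positive cells, 5 of 7 for early prophase and 6 of 8 for pachytene and later spermatocytes peaked in their own class, as did every marker of round spermatids, elongating spermatids, Leydig cells and Sertoli cells. The same markers set the gate, so these counts cannot show how well it places cells. Many cells lay near the limits of the gate: 83 of the 138 Stra8-positive cells and 297 of the 624 early prophase cells led by less than 0.2 of the score, where 0.1 was required. All intervals here cover counting error only, since each genotype is a single library, and no test between genotypes was possible.

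The sequences just upstream of the start sites are shown first, because ATAC-seq peaks in spermatogonia lay on or beside them. They are the 250 bases before the first transcribed base in RefSeq's annotation of GRCm38.p6, printed 5′ to 3′ on the gene's strand, with motif matches in capitals. Brdt (ENSMUSG00000029279) is on the plus strand, chr5:107330944-107331193. Brd3 (ENSMUSG00000026918) is on the minus strand, chr2:27475399-27475648, and Brd2 (ENSMUSG00000024335), whose table entry has 3 starts, is shown at the most upstream of them on the minus strand, chr17:34122608-34122857.
Brdt: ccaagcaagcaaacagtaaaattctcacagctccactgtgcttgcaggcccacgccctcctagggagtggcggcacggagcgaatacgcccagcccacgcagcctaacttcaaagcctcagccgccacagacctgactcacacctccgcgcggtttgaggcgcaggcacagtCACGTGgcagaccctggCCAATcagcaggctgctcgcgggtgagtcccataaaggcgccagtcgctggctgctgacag
Brd3: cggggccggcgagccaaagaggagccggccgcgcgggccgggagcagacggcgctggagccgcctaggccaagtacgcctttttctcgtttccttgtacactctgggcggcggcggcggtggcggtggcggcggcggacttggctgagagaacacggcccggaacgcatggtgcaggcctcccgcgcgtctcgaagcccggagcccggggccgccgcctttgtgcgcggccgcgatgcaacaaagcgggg
Brd2: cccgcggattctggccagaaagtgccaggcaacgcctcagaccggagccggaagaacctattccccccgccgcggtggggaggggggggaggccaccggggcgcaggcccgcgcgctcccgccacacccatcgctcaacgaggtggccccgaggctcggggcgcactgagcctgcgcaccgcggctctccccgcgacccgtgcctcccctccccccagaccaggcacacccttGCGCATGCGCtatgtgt
The windows were searched on both strands for 5 motifs: the E-box CACGTG, the CCAAT box written CCAAT, the NRF1-type run GCATGCGC, the TATA box written TATAAA, and the cAMP response element TGACGTCA. The Brdt window held the E-box, which begins 78 bases before the start, and the CCAAT box, which begins 61 bases before it. Among all 32851 windows of this length, 6.02% held that E-box and 33.8% held the CCAAT box. The Brd2 window held the NRF1-type run on both strands, as 2 overlapping matches between 17 and 8 bases before the start, and 2.26% of all windows held it. No motif of the 5 was found in the Brd3 window. Of all windows, 12.4% held the TATA box and 1.55% the cAMP response element. The windows also differ in CpG dinucleotides, with 16 in Brdt, 37 in Brd3 and 27 in Brd2, against a median of 6.

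As a share of all UMIs of a class, Brdt was highest in early meiotic prophase, when chromosomes pair, and lower in pachytene cells and in each spermatid stage. In spermatogonia it had 46.8 CPM (counts per 1e6 UMIs of the class) in control and 41.6 in cKO, from 45 and 37 UMIs. Stra8-positive cells, at entry into meiosis, had 128 CPM in control (95% interval 99.9 to 163) and 89.9 in cKO (46.5 to 157, from 12 UMIs). Early prophase spermatocytes had 393 CPM in control (367 to 420) and 407 in cKO (372 to 444). The step from spermatogonia to early prophase was thus 8.39-fold in control (6.22 to 11.6) and 9.79-fold in cKO (7.0 to 14.1). On the log2 scale the control step was 3.07, against 2.15 with classes taken from clusters and 3.59 with free RNA subtracted. Subtraction lowers a level below that of free RNA and raises one above it, so it widens this step by its formula.

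Past that peak, Brdt in pachytene and later spermatocytes was 228 CPM in control and 185 in cKO. In UMIs per cell the order turned, with 4.85 and 3.44 in pachytene against 2.2 and 2.2 in early prophase. Median depths were 19993.5 and 16243 UMIs in pachytene, against 4266.5 and 4256.5 in early prophase. Round spermatids had 134 and 118 CPM, and elongating spermatids 46.5 and 35.7. In both libraries the order early prophase, pachytene, round spermatid was parted at each step by intervals that exclude 0: early prophase exceeded pachytene by 0.79 (0.69 to 0.89) in control and 1.14 (1.00 to 1.27) in cKO on the log2 scale, and pachytene exceeded round spermatids by 0.76 and 0.64. Lower in the order, neighbours were not parted in both libraries: round spermatids and Stra8-positive cells, Stra8-positive and Sertoli cells, Sertoli cells and spermatogonia, spermatogonia and elongating spermatids, and elongating spermatids and Leydig cells.

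Somatic cells, in which Brdt is not known to be made, also had Brdt UMIs. Leydig cells, which make testosterone, had 32.7 CPM in control and 26.5 in cKO, and Sertoli cells, which nurse the germ cells, 57.4 and 41.2. Without cells above 10% mitochondrial UMIs the Sertoli level was 110 and 63.4 CPM. Barcodes of at most 100 UMIs, which hold free RNA, had 84.1 and 73.7 CPM. With each cell thinned to 3000 UMIs, a Brdt UMI was present in 63.1% of early prophase cells in control and 68.9% in cKO (76.1% and 81.3% unthinned, at median depths of 4266.5 and 4256.5 UMIs). The thinned share was 12.6% and 12.2% in spermatogonia and 14.1% and 10.0% in elongating spermatids. It was 15.7% and 11.1% in Sertoli cells (30.4% and 26.9% unthinned, median depths 4893 and 7116) and 8.56% and 8.82% in Leydig cells (23.5% and 17.1% unthinned, median depths 8088 and 6616.5). Unthinned, the shares were 23.7% and 22.3% in spermatogonia and 29.6% and 21.1% in elongating spermatids, at median depths of 7023 and 5774, and of 6813.5 and 6298. In control both of these germ-cell classes were below the Sertoli share, and in cKO elongating spermatids were below it and spermatogonia at 12.2% against 11.1%; the Leydig share was below both classes in both libraries. Of the Sertoli class, 39 of 79 control cells lay in cluster 15, where the elongating spermatid list scores highest and the Sertoli list next (0.84 and 0.64); 3 of its 10 genes of highest fold are Sertoli markers and none is an elongating spermatid marker. In level, spermatogonia exceeded Leydig cells by 0.52 (-0.23 to 1.3) in control and 0.65 (-0.25 to 1.62) in cKO on the log2 scale, and so were not parted from them. With free RNA subtracted, spermatogonia kept 38.4 CPM of Brdt in control and 33.5 in cKO, against 21 and 14.7 in Leydig cells and 51.4 and 33.1 in Sertoli cells. Whether Brdt in spermatogonia exceeds the level of somatic cells was thus not detectable at this depth, and the fold from spermatogonia to early prophase has this low level as its base.

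**Figure D1:**
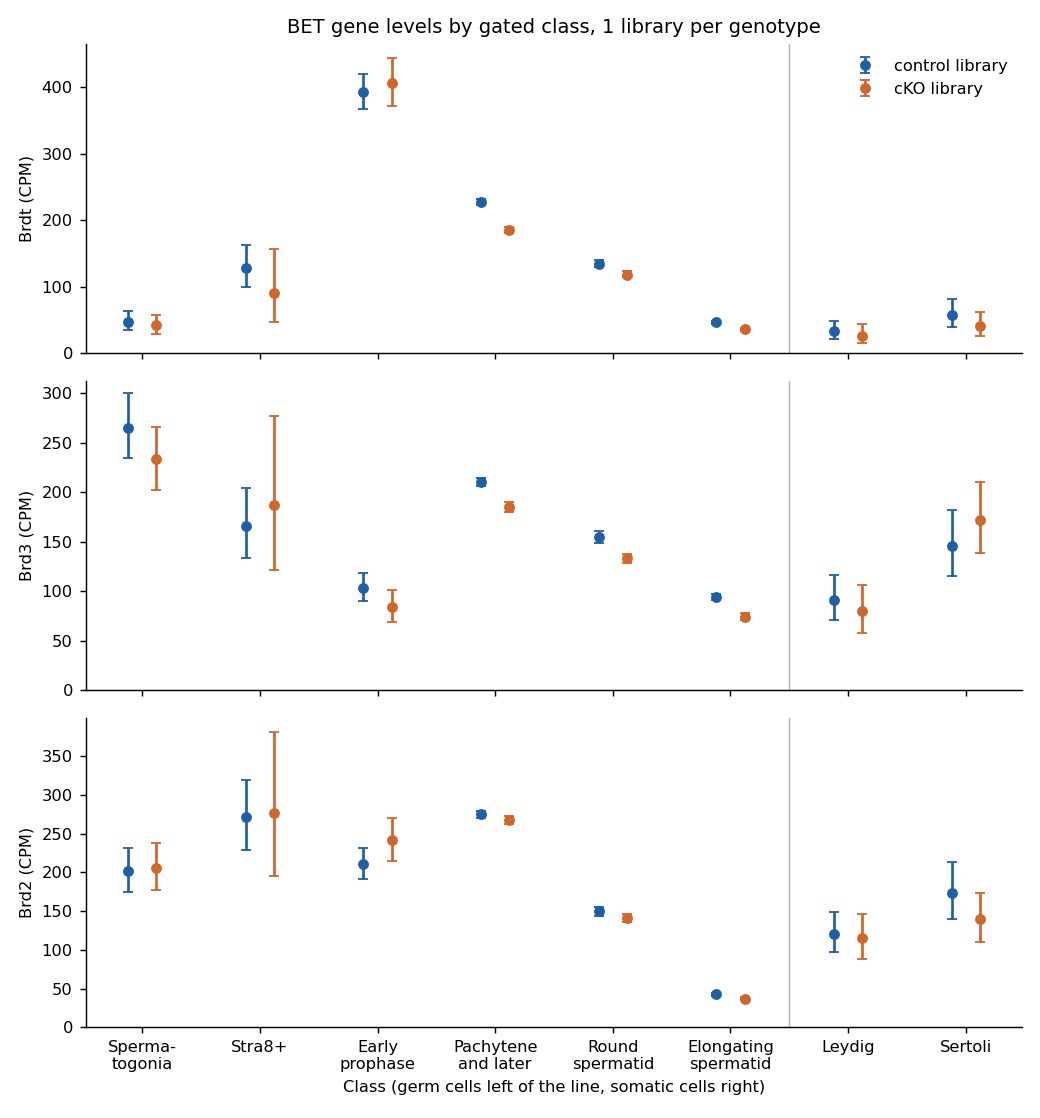
Counts per 1e6 UMIs (CPM) of Brdt, Brd3 and Brd2 in each gated class of the control and cKO single-cell libraries, with exact Poisson 95% intervals as bars and a separate vertical axis per gene. Brdt is highest in early prophase at 393 CPM in control and 407 in cKO, while Brd3 has a low there at 103 and 83.8 CPM.

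Brd3 took the opposite course at the same point. By CPM it was highest in spermatogonia, with 265 CPM in control (234 to 300) and 233 in cKO (202 to 266). Stra8-positive cells had 166 and 187 CPM, a log2 step of -0.68 (-1.05 to -0.33) in control and of -0.31 (-0.97 to 0.29) in cKO, where it rests on 25 UMIs. Early prophase had 103 (90.5 to 118) and 83.8 (68.4 to 101). From spermatogonia to early prophase the log2 difference was -1.36 in control (-1.62 to -1.10) and -1.47 in cKO (-1.83 to -1.13). Brd3 then stood at 210 CPM in pachytene and later spermatocytes of control and 185 of cKO, 2.03-fold (1.78 to 2.33) and 2.21-fold (1.82 to 2.71) above early prophase. In UMIs per cell pachytene was the highest class, with 4.48 and 3.44 against 1.95 and 1.49 in spermatogonia, which have lower median depth. Spermatids again had less, 155 and 133 CPM in round and 94.3 and 74.2 in elongating cells. Leydig cells had 91.3 and 79.5 CPM and Sertoli cells 146 and 172. Of neighbours in this order, spermatogonia over pachytene and Sertoli cells over early prophase were parted in both libraries, and no other pair was. The thinned share of cells with a Brd3 UMI followed the levels: 52.6% and 48.5% in spermatogonia, 28.9% and 24.4% in early prophase, 46.2% and 41.3% in pachytene. Unthinned, these shares were 81.7% and 71.2%, 43.4% and 37.8%, and 91.1% and 86.9%, at median depths of 7023 and 5774, 4266.5 and 4256.5, and 19993.5 and 16243. As both Brd3 and Brd2 are made in most tissues, no class here serves as their background. Free RNA had 89.1 and 86.1 CPM of Brd3, so the early prophase level of Brd3 lies near that of free RNA. With free RNA subtracted, that level was 107 CPM in control and 83.2 in cKO. Subtraction hardly moves a level near that of free RNA, whatever share is taken off. These values therefore cannot show how much of the early prophase level is free RNA.

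By CPM, Brd2 was broad until the spermatid stages. Spermatogonia had 202 CPM in control and 206 in cKO, Stra8-positive cells 272 and 277, and early prophase 211 (192 to 231) and 242 (215 to 271). Pachytene and later spermatocytes had 275 CPM (270 to 279) in control and 268 (262 to 273) in cKO, 1.36-fold (1.18 to 1.57) and 1.3-fold (1.13 to 1.52) above spermatogonia. These germ-cell classes thus lie close together in CPM, and no neighbours among them were parted in both libraries. In UMIs per cell they do not, with 5.85 in control and 4.98 in cKO in pachytene. Spermatogonia had 1.48 and 1.32, Stra8-positive cells 1.32 and 1.37, and early prophase 1.18 and 1.3. Median depth in pachytene was 19993.5 and 16243 UMIs, against 7023 and 5774 in spermatogonia. Round spermatids then had 150 and 141 CPM and elongating spermatids 42.7 and 36.9. From round to elongating spermatids the level was 0.284-fold (0.268 to 0.302) in control and 0.261-fold (0.243 to 0.280) in cKO. Free RNA held 99.4 and 93.0 CPM of Brd2, above the elongating level and below the round level. With it subtracted, Brd2 was 162 and 153 CPM in round but 29.9 and 22.8 in elongating spermatids. Subtraction raises a level above that of free RNA and lowers one below it, so this wider step was fixed in advance. Leydig cells, at 121 and 115 CPM, exceeded elongating spermatids in both libraries, and Sertoli cells had 174 and 140 CPM. Because CPM is a share of all RNA in a class, and elongating spermatids are rich in transcripts of protamines and other packaging genes, UMIs per cell are given too. Brd2 had 2.49 UMIs per round spermatid in control and 2.31 in cKO, and 0.352 and 0.28 per elongating spermatid. Without the elongating spermatid markers and mitochondrial genes in the total, Brd2 was 153 and 143 CPM in round spermatids and 53.5 and 47.3 in elongating spermatids. Fewer captured UMIs and less RNA in the cell cannot be told apart here.

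Ordered clusters showed the meiotic course more finely. Leiden clustering, run without the 3 genes, gave 23 clusters, and 8 of them, led by early prophase, pachytene or round spermatid markers, were put in order by those markers after the data had been seen. They are the clusters whose leading list is also the most frequent gate of their cells, with at least 50 cells in each library. Left out were 2 pachytene-led clusters: number 17, whose cells were most often ungated, had 203 CPM of Brdt in control and 160 in cKO, 179 and 152 of Brd3 and 175 and 179 of Brd2, and number 21 had 2 control and 24 cKO cells. Brdt in control was 295 CPM in the first, early prophase cluster and 356 in the second, where pachytene markers lead and early prophase markers are still high. It was lower in each later cluster, with 276, 208, 189 and 171 CPM in the other pachytene-led clusters of the order and 154 and 85.7 in the round spermatid clusters. In cKO the first cluster was highest, at 357 CPM, followed by 272, 220, 164, 163, 152, 124 and 72.9.

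Brd3 and Brd2 were highest later along the same series, both in the fifth cluster. Brd3 in control was 121 CPM in the first cluster, 255 in the fifth and 117 in the last, and in cKO the same clusters had 93.2, 228 and 99.6. Brd2 in control was 208, 185 and 200 CPM in the first clusters, 346 in the fifth and 72.2 in the last, and in cKO 213, 185, 193, 337 and 68.5. The fifth cluster had 766 control and 451 cKO cells. Its 10 genes of highest fold are Pclaf, Nkx2-4, Pou3f3, Dnaic2, Spc25, Rgcc, Rnase10, Rhcg, Zbtb5 and Plk1. Of these, Plk1 and Spc25 are genes of dividing cells, picked here after their values were seen, and the pick does not speak for the rest of the list. Where the other members stood highest, Brdt was at 189 CPM in control and 163 in cKO, below its first-cluster level in both libraries. Median depth differs between these clusters, from 4385 UMIs in the first to 30867 in the fourth, and its part in the levels was not tested.

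**Figure D2:**
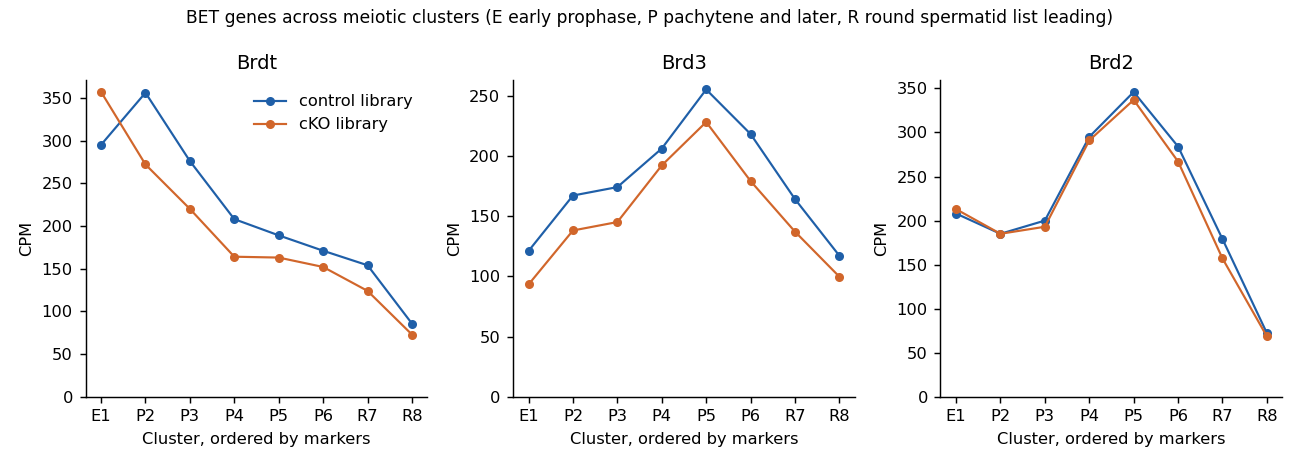
CPM of Brdt, Brd3 and Brd2 in the 8 meiotic clusters of the control and cKO libraries, ordered from left to right by marker genes; each point is the summed UMIs of a cluster in 1 library. Brdt is highest in the first 2 clusters, and Brd3 and Brd2 in the fifth.

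The cKO library had less Brdt and Brd3 than the control library and, over all kept cells, nearly the same Brd2. Within clusters Brd2 was lower in cKO in 17 of 19, with a median log2 ratio of -0.18. Over all kept cells Brdt was 147 CPM in control against 123 in cKO, which is -0.26 on the log2 scale (-0.29 to -0.23). Brd3 was 154 and 134 CPM, or -0.20 (-0.23 to -0.17). Brd2 was 165 and 161 CPM, or -0.04 (-0.07 to -0.01). Ungated cells had ratios of the same order: Brdt -0.20 (-0.27 to -0.12), Brd3 -0.14 (-0.22 to -0.06) and Brd2 0.06 (-0.01 to 0.13). All of these ratios are small. Among 12813 genes with at least 500 UMIs, the middle 95% of log2 ratios ran from -0.61 to 0.41 with a median of -0.02, and 19.7% of genes had a lower ratio than Brdt, 25.9% than Brd3 and 47.0% than Brd2. No member reached a log2 ratio of 1 in size over all cells. Of 17285 genes with at least 100 UMIs, 0.127% were higher by that much and 0.567% lower.

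By class, the Brdt interval excluded 0 in pachytene and later spermatocytes and in both spermatid stages. In early prophase the log2 ratio was 0.05 (-0.11 to 0.21), in pachytene and later spermatocytes -0.30 (-0.34 to -0.25), in round spermatids -0.18 (-0.26 to -0.10) and in elongating spermatids -0.38 (-0.49 to -0.27). Spermatogonia, at -0.17 (-0.84 to 0.49), and Stra8-positive cells, at -0.51 (-1.53 to 0.38), had too few UMIs to show a difference of that size. Brd3 had -0.19 (-0.46 to 0.08) in spermatogonia, 0.18 (-0.52 to 0.83) in Stra8-positive cells, -0.30 (-0.65 to 0.04) in early prophase, -0.18 (-0.23 to -0.14) in pachytene, -0.22 (-0.30 to -0.14) in round and -0.35 (-0.42 to -0.27) in elongating spermatids. For Brd2 the intervals excluded 0 in round spermatids, at -0.09 (-0.17 to -0.01), and in elongating spermatids, at -0.21 (-0.32 to -0.10). Its early prophase ratio of 0.20 (-0.02 to 0.41) was the highest of its germ-cell classes. In elongating spermatids, Brdt at 46.5 CPM and Brd2 at 42.7 CPM in control were both below free RNA, at 84.1 and 99.4, and their ratios there moved with the processing: -0.52 and -0.36 without doublet calls, and -0.54 and -0.39 with free RNA subtracted at an estimated 18.5% of UMIs in control and 20% in cKO. That estimate comes from Leydig markers in elongating spermatids, and for cKO it was 10.4% without doublet calls.

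These class ratios sit inside the spread of other genes. In pachytene and later spermatocytes 15.3% of genes with at least 500 UMIs had a lower ratio than Brdt and 26.4% than Brd3, and in elongating spermatids 13.5% and 16.3%. In none of the 8 classes did a member pass a log2 ratio of 1 in size. Of genes with at least 100 UMIs in the class, 0.0789% passed it upward and 0.379% downward in pachytene. In elongating spermatids the shares were 0.0418% and 0.476%. Of the other classes, the shares higher and lower were 0.0268% and 0.322% in spermatogonia, 0.207% and 1.86% in Stra8-positive cells, 0.0177% and 1.45% in early prophase, and 0.112% and 0.597% in round spermatids. In Leydig cells they were 0.153% and 1.42%, and in Sertoli cells 0.295% and 0.541%. Brdt had fewer than 100 UMIs over both libraries in spermatogonia, Stra8-positive, Leydig and Sertoli cells, so it is not among the genes of those shares.

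Depth, free RNA and cluster make-up also differed between the libraries. Median depth in pachytene and later spermatocytes was 19993.5 UMIs in control and 16243 in cKO. Free RNA had a Brdt log2 ratio of -0.19 (-0.36 to -0.02), against -0.05 (-0.21 to 0.12) for Brd3 and -0.10 (-0.25 to 0.06) for Brd2. Elongating spermatids came from different leading clusters, number 1 in control and number 0 in cKO. In Leydig and Sertoli cells, which keep Kdm6a, the intervals of all 3 genes included 0: Brdt had -0.30 (-1.34 to 0.69) and -0.48 (-1.33 to 0.35), Brd3 -0.20 (-0.78 to 0.37) and 0.24 (-0.21 to 0.69), and Brd2 -0.08 (-0.56 to 0.40) and -0.32 (-0.77 to 0.13). Of Sertoli cells, 63 of 78 in cKO lay in cluster 19, against 34 of 79 in control, where 39 lay in cluster 15; without cells above 10% mitochondrial UMIs the Sertoli ratio of Brd3 was -0.29. The part of these differences in the ratios was not tested.

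**Figure D3:**
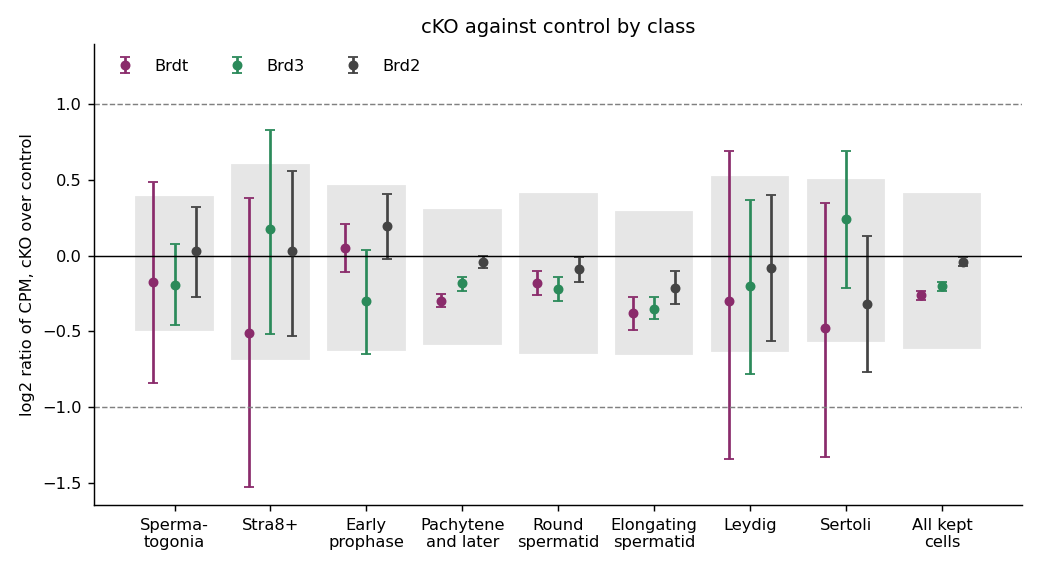
Log2 ratio of CPM, cKO over control, for Brdt, Brd3 and Brd2 in each class and over all kept cells, with exact 95% intervals as bars; grey boxes span the middle 95% of genes with at least 500 UMIs and dashed lines mark a ratio of 1 in size. In pachytene and later spermatocytes Brdt lies at -0.30 and Brd2 at -0.04, and no member lies past a dashed line.

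The direction was also read within clusters, so that shifts in class make-up weigh less. In the 19 clusters with at least 50 cells of each library, Brd3 was lower in cKO in 19, with 15 intervals below 0 and a median log2 ratio of -0.26. Brdt was lower in 18, with 14 intervals below 0 and a median of -0.34, and Brd2 in 17, with 6 intervals below 0 and a median of -0.18. Of 5251 genes with at least 20 UMIs in each of these clusters, 9.31% were lower in all 19, 16.4% in at least 18 and 23.2% in at least 17, and the median gene was lower in 11. The exception for Brdt was the early prophase cluster, with 295 CPM in control against 357 in cKO and a ratio of 0.28 on the log2 scale (0.14 to 0.41). Stra8-positive cells made up 99 of its 789 control cells and 17 of its 341 cKO cells. The next cluster turned the other way, with 356 CPM in control against 272 in cKO and a ratio of -0.39 (-0.49 to -0.29). Since each genotype is 1 library, library and genotype cannot be told apart in any of these values.

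Other genes followed each member's class profile. Likeness was Pearson's r of log2(CPM + 1) over 16 points, the 8 classes in both libraries, among 14734 genes; points of a library share its depth and free RNA, so r is a description. Closest to Brdt were Cluap1 (r 0.960), Cep83os (0.959), 4930524B15Rik (0.953), Dmrtc2 (0.945) and Nek4 (0.942). Closest to Brd2 were Ubxn4 (0.981), Ik (0.967), Ate1 (0.960), Eif2s2 (0.957) and Ebna1bp2 (0.956). Brd3 had looser companions: Cdk6 (0.881), E2f8 (0.877), Lcmt1 (0.874), Mt2 (0.864) and Umps (0.858). Cdk6 ran from 1.36 to 51.7 CPM over the 16 points and E2f8 from 0 to 14.6 CPM, so their low points rest on few UMIs. Among the members themselves r was 0.62 for Brd2 and Brd3, 0.57 for Brd2 and Brdt and 0.07 for Brd3 and Brdt.

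Genes of the pathway around BET proteins were taken from 4 lists and compared over all kept cells. Of 17285 genes with at least 100 UMIs, 53.4% were lower in cKO, with a median log2 ratio of -0.02. P-TEFb, its 7SK inhibitor complex and pause release factors had 16 of 17 genes with as many UMIs, of which 7 were above 0 and 9 below, with a median of -0.02. Of these, Larp7, which stabilizes 7SK RNA, was 456 CPM in control and 478 in cKO, and Nelfe, a subunit of the pausing factor NELF, 235 and 237. Aff4 and Ell2, both of the super elongation complex, were lower in cKO, at 42.1 and 26.3 CPM (log2 ratio -0.68, -0.75 to -0.62) and at 34.6 and 22.7 CPM (-0.61, -0.69 to -0.54). Both were also lower in the cKO library in somatic cells, which keep Kdm6a. Aff4 had 101 and 76.0 CPM in Leydig cells and 151 and 82.4 in Sertoli cells. Ell2 had 24.5 and 19.4 CPM in Leydig cells and 17.2 and 8.96 in Sertoli cells. These class values have no intervals here. Supt5, a pausing and elongation factor, had 96.1 and 80.2 CPM.

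Other bromodomain genes were lower in cKO in 23 of 26 cases, 88.5%, with a median log2 ratio of -0.34. Trim24, a bromodomain co-regulator, was 193 CPM in control and 134 in cKO (-0.53, -0.56 to -0.50). It was also lower in the cKO library in Leydig cells, at 70.8 and 53.0 CPM, and in Sertoli cells, at 155 and 87.8. Baz1a, a chromatin remodeller subunit, had 207 and 177 CPM, and the ATPase gene Atad2 26.8 and 20.1. Taf1, of the general factor TFIID, had 6.77 and 4.1 CPM (-0.72, -0.90 to -0.55), and Cecr2, a remodeller subunit, 21.6 and 14.2 (-0.60, -0.70 to -0.51). By class, Taf1 had 178 and 129 CPM in spermatogonia, 179 and 210 in Stra8-positive cells, 57.6 and 20.9 in early prophase and 0.875 and 0.767 in pachytene. Of control and cKO cells, spermatogonia were 1.16% and 1.63%, Stra8-positive cells 0.986% and 0.317%, and early prophase 3.5% and 2.7%. The part of class make-up in the ratios over all kept cells was not tested. Histone acetyltransferases, which write the mark that BET proteins read, were listed with the non-enzyme subunits Epc1, Epc2 and Ing3 of the NuA4 complex, and 9 of these 13 genes were below 0, with a median of -0.16: Ep300 had 16.7 and 11.3 CPM, Kat6a 16.5 and 12.5, Crebbp 25 and 20.4 and Kat7 79.4 and 70.3, while Hat1, at 35.3 and 40.9 CPM, was above 0. Histone deacetylases with enough UMIs, 9 of 12, had 5 below 0 and a median of -0.04. Hdac1 had 141 and 142 CPM, Hdac2 20.6 and 20.1, Hdac6 5.04 and 4.91 and Sirt1 19.9 and 14.7, and Sirt6 rested on 88 and 82 UMIs. No gene of the 4 lists passed a log2 ratio of 1 in size.

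**Figure D4:**
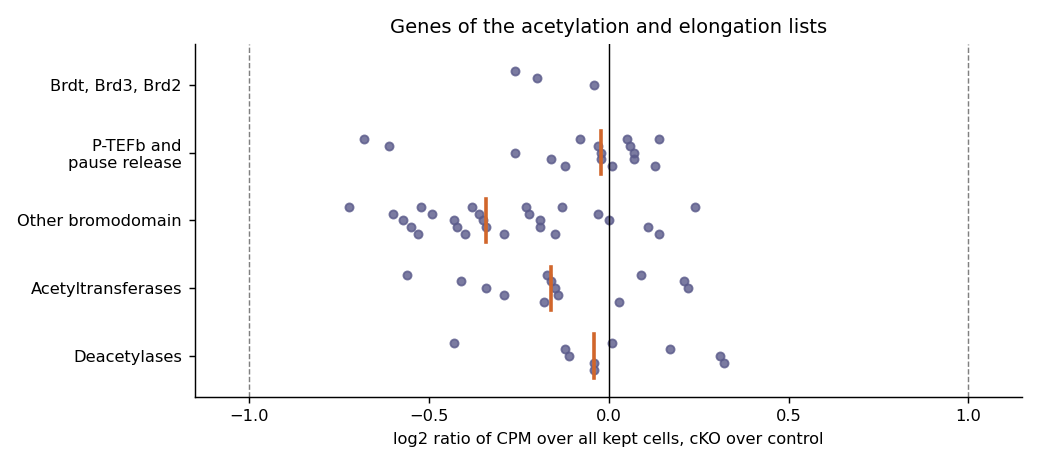
Log2 ratio of CPM over all kept cells, cKO over control, for each gene with at least 100 UMIs in 4 pathway lists and for the 3 members; vertical bars mark list medians and dashed lines a ratio of 1 in size. The other bromodomain genes centre at -0.34, and the P-TEFb list at -0.02.

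In cKIT+ spermatogonia the Brdt start had an ATAC-seq peak in all 5 libraries, while Brdt RNA in gated spermatogonia of the single-cell libraries was 46.8 CPM in control and 41.6 in cKO, not parted from somatic cells. The sorted and the gated cells may not be the same population, since Kit, the gene of the sort marker, was among the spermatogonia markers whose level was highest in another class. Peak coordinates and folds over background are the authors' own, on mm10. The Brdt peaks covered the start base in every list, from -200 to 197 bases from the start in control 1 and from -1158 to 298 in cKO 3, where negative is upstream. Their fold enrichment was 4.46 and 5.81 in control 1 and 2, and 4.25, 5.21 and 4.65 in cKO 1 to 3. Control and cKO libraries overlap in fold. The printed CACGTG and CCAAT lie inside this peak in each list.

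Brd3 and Brd2 also had a peak within 1 kb of a start in all 5 libraries, as did 35.6% of 17492 protein-coding genes, while 35.9% had one in no library. The Brd3 peak ended between -226 and -152 bases from the start in 4 lists and covered it in control 2, so most of the printed Brd3 window lies outside the peaks of those 4 lists. Over the start base itself, every library had a peak for 28.5% of genes and no library for 43%. Fold enrichment for Brd3 was 4.47 and 4.58 in control and 3.2, 3.81 and 5.17 in cKO. At Brd2, control 1, control 2 and cKO 3 each had a single peak of 3640, 3829 and 3753 bases, which reaches across several starts, with folds of 3.53, 3.01 and 2.75. In cKO 1 and cKO 2 the same stretch had 2 peaks each, with folds of 4.73 and 2.36 in cKO 1 and 4.55 and 2.73 in cKO 2. The most upstream Brd2 start was covered in control 2, cKO 1 and cKO 3, by peaks that reach -55, -17 and -50 bases from it, while the peaks of control 1 and cKO 2 stop 57 and 16 bases downstream. Most of the printed Brd2 window thus lies outside the peaks in all 5 lists. By fold, the peaks over the most upstream Brd2 start ranked low, at percentile 5.95 of the list of control 2, 0.0137 of cKO 1 and 3.26 of cKO 3. Lists differ in length, from 14635 peaks in cKO 1 to 40497 in cKO 3, and the depth of these libraries is unknown, so folds and widths are described and not tested. The peaks of the cKO 1 list are named with the prefix C2, as are those of control 1; without cKO 1, each member had a peak in 4 of 4 libraries.

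**Figure D5:**
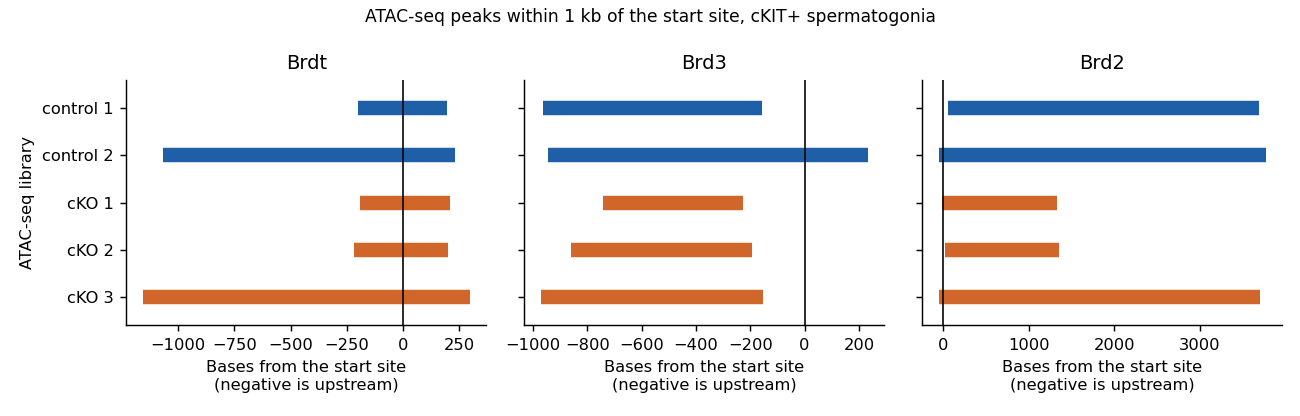
Extent of the authors' ATAC-seq peaks in cKIT+ spermatogonia relative to the start site (0, negative is upstream) of Brdt, Brd3 and the most upstream start of Brd2, with 1 row per library. The Brdt peaks cover the start in all 5 libraries and the Brd3 peaks in control 2 alone; peaks cover this Brd2 start in control 2, cKO 1 and cKO 3.

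H3K27me3, the mark that Kdm6a removes, was called at 1 of the 3 genes, in a single library of the same kind of cells. No library had a region within 1 kb of a Brd2 or Brd3 start, as for 81.5% of genes. Brdt had a region in 1 of 5 libraries, control 2, which spans 2185 bases and covers the start. Its highest signal of 50.0 ranked at percentile 29.6 of its list, with tied regions given their mean rank. Every library had such a region for 6.83% of genes, and over the start base every library did for 3.31% and no library for 84.8%. The IgG library had none at any member. A Brdt region was thus seen in 1 of 2 control and 0 of 3 cKO libraries, and control 2 is the library with the most genes marked, 15.3% against 8.6% to 14.2% in the other 4.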

How the data were processed

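The single-cell matrices hold UMI counts per gene and barcode, deposited with no cells selected; Cell Ranger 4 made them per the file headers, from a 3' kit, and mm10 and Seurat 4.1.0 are named in the submitters' processing notes. UMIs were summed over barcodes of at least 3000 UMIs and gated classes, and given as CPM with exact Poisson intervals; log2 ratios have exact conditional intervals, both at 95%. The gate divides the log of a marker list's UMIs per 10000 by its median over the 100 highest cells, and asks for 0.5 and a lead of 0.1. Gate limits were set after marker levels had been seen, and the members and lists were chosen with earlier results of these data known. Doublets (scanpy 1.11.5) were marked and kept; clusters came from leidenalg 0.10.2 at resolution 1 over 30 components and 15 neighbours.

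A list's genes are named where among its 3 highest class levels in control or its 2 largest ratios, and 5 genes per member by likeness. On simulated Poisson counts of 15831 genes with 200 changed, 95.1% of intervals for all kept cells held the true ratio. These counts had no variation between libraries or cells beyond counting error. Of simulated cells of 5000 UMIs, at least 85.0% per class returned to their class. They were drawn from the mean profiles of control cells that the gate had already placed, so this cannot show how well it places real cells.

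ATAC-seq peaks came from the authors' lists (Bowtie2, MACS2 and mm10, per the submitters' processing notes), whose deposited columns are a score, a fold enrichment and -log10 of p and q; the fold was used. H3K27me3 regions (SEACR, per the same notes) carry the authors' total and highest signal. Peaks within 1000 bases of a start in RefSeq's GRCm38.p6, the assembly of mm10, were counted. Bulk testis and GC-1 RNA were not analysed here, since no table used here pairs their transcript IDs with genes.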

Additional observations from a re-analysis of the deposited data

How the results depend on the processing

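Over all kept cells, the cKO against control ratios kept their direction, and stayed within the counting interval, under 6 alternatives: minimums of 2000 and 5000 UMIs, at most 10% mitochondrial UMIs, doublet calls left out, free RNA subtracted, and CPM without elongating spermatid markers and mitochondrial genes. Brdt ran from -0.27 to -0.26, Brd3 from -0.21 to -0.19 and Brd2 from -0.05 to -0.02. The median over clusters, an alternative chosen after seeing the data, gave -0.34 for Brdt, -0.26 for Brd3 and -0.18 for Brd2. Each of these lies below the counting interval of its gene. The Brdt log2 ratio of pachytene and later cells to spermatogonia in control, 2.28, was 2.76 with free RNA subtracted and 1.79 with classes from clusters. Subtraction widens by its formula a ratio of levels that lie on either side of free RNA, as these do. Why clusters gave a smaller ratio was not tested. Brd2 and Brd3 kept theirs within the interval under all 8 alternatives. Among whole classes and by CPM, Brdt stayed highest in early prophase, and Brd3 in spermatogonia, in both libraries under each alternative. Single clusters differed: Brd3 had 255 CPM in control and 228 in cKO in the fifth meiotic cluster, against 237 and 212 in the spermatogonia-led cluster. Brdt in control had 356 CPM in the second, pachytene-led cluster, against 295 in the early prophase cluster. With classes from clusters the Brdt ratio of cKO to control in early prophase was 0.28, and no cluster was led by Stra8-positive markers. In round spermatids the same alternative gave -0.32 for Brdt and -0.19 for Brd2, both below their counting intervals. Of 189 class ratios of cKO to control recomputed, 11 left their counting interval. Of 378 class levels recomputed, 82 left their counting interval, 23 of them with free RNA subtracted, whose estimated share of 18.5% in control and 20% in cKO itself depends on the setting: it was 14.5% and 10.4% without doublet calls, 19.3% and 10.2% with classes from clusters, and 17.7% and 10.1% with the stricter gate, so subtracted values rest on it. With overlap of the start base in place of 1 kb, Brd3 had an ATAC-seq peak in 1 library in place of 5. Leaving out 1 library at a time, also chosen after seeing the data, left an H3K27me3 region at Brdt in 0 to 1 libraries, with 0 without control 2. Alternatives for bulk RNA were not run. No paired analysis was possible because no result comes from a test over libraries: each genotype has 1 single-cell library, and peaks are given as presence. Depth limits the Brdt ratios in spermatogonia, Stra8-positive and somatic cells, which rest on 12 to 69 UMIs per library.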
